A study of Homo sapiens with 4 samples.

Results

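Chromatin immunoprecipitation followed by sequencing (ChIP-seq) of the cytidine deaminase A3B (APOBEC3B) was compared between OMM2.3 and 92.1, a pair of human uveal melanoma cell lines. Each line had 1 library made with an anti-A3B antibody from Abcam and 1 made with normal rabbit IgG, so the 4 libraries formed 4 groups of 1, and no other treatment or genetic change was given for these cells. A peak list was called for each line from its A3B library against its IgG library. With no replicates, nothing compared here has a replicate check, and no test between the lines was run.

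The regions described are the sites where the lists met. They were chosen by the peak positions called in both lines, as OMM2.3 peaks on chromosomes 1 to 22 that overlapped a 92.1 peak by at least 1 bp, together with their partners. There were 1995 such peaks among 55061 in OMM2.3 (3.62%) and 1995 partners among 134484 in 92.1 (1.48%). They formed 2000 pairs, since 5 peaks of each list had 2 partners. These shares were set by the choice of members. Whether the cells carry the markers of uveal melanoma was not checked, since peak lists hold no expression.

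A3B converts cytosine to uracil in single-stranded DNA, most readily where the cytosine follows a thymine. Single-stranded DNA is exposed at replication forks and in R-loops, which are hybrids of nascent RNA with its template strand that leave the other strand unpaired. Centromeres are built of tandem copies of alpha satellite, part of which carries the CENP-B box, a short motif bound by the centromere protein CENP-B. Other satellites, found beside the centromeres of some chromosomes, are made of repeats of GGAAT. Reads from such copies are hard to place, and the reference genome holds only part of them.

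The sequences below show the extremes of the shared sites. All are GRCh38, plus strand, and each is the overlap of the paired peaks. Capitals mark the stretch from the summit of one line to the summit of the other, as far as it lies in the overlap. The first 3 are the pairs with the highest lower −log10 p of their 2 peaks, where p is the value of the peak caller at the summit. They lie in repeated sequence beside or within centromeres, at chr16:46386343-46386590, chr17:26603785-26604012 and chr16:34576368-34576594, and no gene covers them.
Chromosome 16, first pair: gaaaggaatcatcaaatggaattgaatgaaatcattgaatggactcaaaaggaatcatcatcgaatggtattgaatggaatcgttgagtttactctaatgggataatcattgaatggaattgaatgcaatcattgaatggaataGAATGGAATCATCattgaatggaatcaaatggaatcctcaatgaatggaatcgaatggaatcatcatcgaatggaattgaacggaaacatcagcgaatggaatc
Chromosome 17: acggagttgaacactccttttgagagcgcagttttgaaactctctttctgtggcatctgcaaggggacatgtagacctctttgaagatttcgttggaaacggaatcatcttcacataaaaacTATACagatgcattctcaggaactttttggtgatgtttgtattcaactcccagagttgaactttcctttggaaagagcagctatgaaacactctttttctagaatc
Chromosome 16, second pair: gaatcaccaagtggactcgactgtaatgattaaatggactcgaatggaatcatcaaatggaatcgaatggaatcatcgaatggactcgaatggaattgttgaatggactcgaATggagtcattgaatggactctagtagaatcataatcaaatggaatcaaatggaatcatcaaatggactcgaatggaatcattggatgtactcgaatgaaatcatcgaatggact
The motif GGAAT, counted on both strands, occurred 13 times in the first of these overlaps, once in the one on chromosome 17 and 7 times in the other.

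The other sequences are strong pairs in single-copy sequence, shown because none of their sampled 32-mers recurs in the genome. Diverged copies were not searched for. They lie between genes at chr1:150203720-150203904, in an intron of KIAA1671 at chr22:25139129-25139353, and 941 bp from the nearest protein-coding transcription start site, in PDAP1, at chr7:99403731-99404001.
Chromosome 1: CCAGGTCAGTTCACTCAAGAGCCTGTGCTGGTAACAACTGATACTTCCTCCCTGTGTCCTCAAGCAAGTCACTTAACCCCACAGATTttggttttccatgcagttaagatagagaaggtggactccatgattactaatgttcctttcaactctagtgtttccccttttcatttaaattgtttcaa
KIAA1671: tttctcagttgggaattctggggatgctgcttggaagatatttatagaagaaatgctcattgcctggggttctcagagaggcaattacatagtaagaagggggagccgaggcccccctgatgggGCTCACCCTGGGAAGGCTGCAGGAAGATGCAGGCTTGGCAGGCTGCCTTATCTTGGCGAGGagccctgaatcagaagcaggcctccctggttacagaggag
PDAP1: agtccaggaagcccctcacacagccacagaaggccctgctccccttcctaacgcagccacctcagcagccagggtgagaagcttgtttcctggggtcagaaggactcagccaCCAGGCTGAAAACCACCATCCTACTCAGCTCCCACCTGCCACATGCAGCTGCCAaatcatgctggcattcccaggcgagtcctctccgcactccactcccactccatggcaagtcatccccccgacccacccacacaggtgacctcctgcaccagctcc

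Most shared sites were weak in both lines and did not coincide closely. Overlaps ran from 1 to 582 bp, with a median of 157.5 bp and quartiles of 81 and 223 bp. The summits of a pair lay a median of 135 bp apart (quartiles 59 and 235, highest 1114). In 752 pairs (37.6%) they were at most 100 bp apart, and in 792 (39.6%, 95% Wilson interval 37.5 to 41.8) each peak covered at least 50% of the other. All intervals given here cover counting error only, since peaks of 1 library are not replicates.

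The −log10 p of paired OMM2.3 peaks had a median of 2.42 (range 1.32 to 18.2), and that of their 92.1 peaks a median of 2.68 (1.31 to 19.5). Across the 2000 pairs, the ranks of these values were almost unrelated, with a Spearman coefficient of 0.008. It was 0.024 over 1386 pairs with single-copy sequence at both summits, 0.040 over 394 pairs with repeated sequence at both and −0.140 over 220 with repeated sequence at 1 of them. A summit window was the summit base with 100 bp on either side. It counted as repeated sequence if 50% or more of its sampled 32-mers had another copy in the genome, and as single-copy otherwise. All pairs come from the same 2 A3B libraries, and weak peaks rest on so few fragments that −log10 p takes few values, seen as columns and rows of points in the plot of pair strengths.

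**Figure D1:**
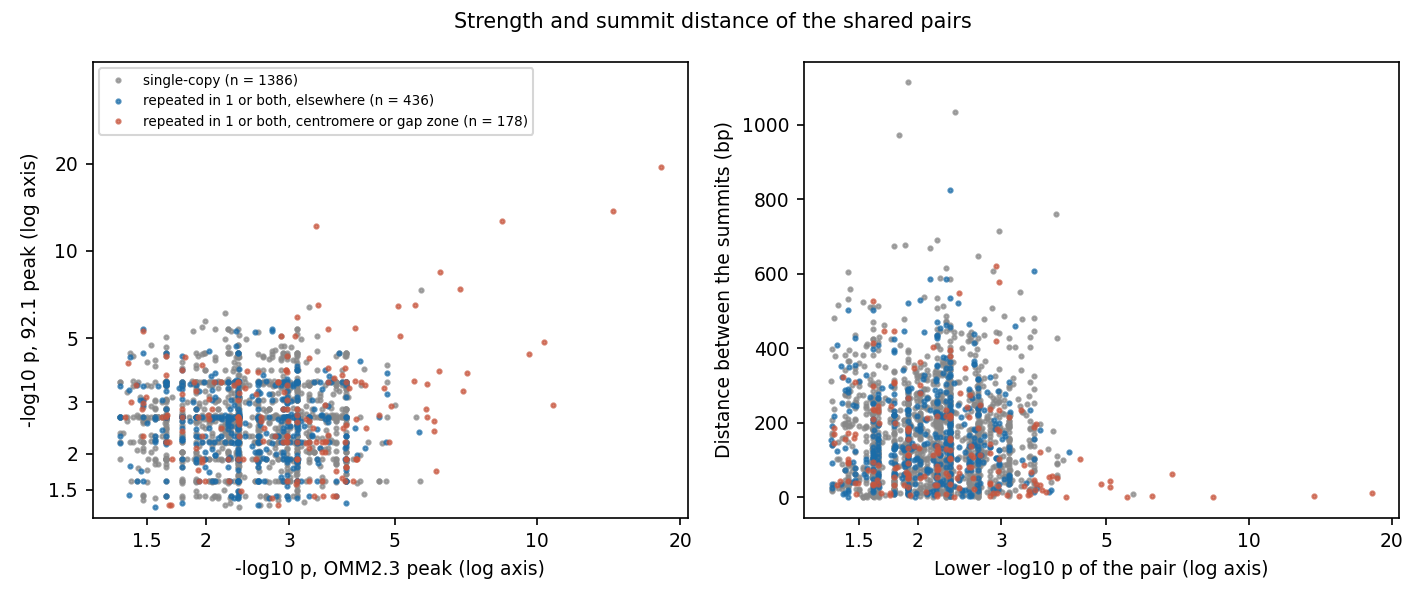
Left, the −log10 p of each of the 2000 pairs in OMM2.3 and 92.1 (both axes logarithmic); right, the distance between the paired summits in bp against the lower −log10 p of the pair (logarithmic). Points are pairs, by sequence at the summits and by place. The 9 pairs with a lower −log10 p of 5 or more have summits at most 62 bp apart, while weaker pairs spread up to 1114 bp.

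Only 9 pairs had a p of at most 1e-05 (−log10 p of 5 or more) in both lines. All 9 lay within 3 Mb of a centromere or of the largest assembly gap of their chromosome, 8 had repeated sequence at both summits, and none lay in a gene. In 5 of them the OMM2.3 summit window held at least 5 copies of GGAAT on either strand, and 4 lay in spans dense in CENP-B boxes. Summits in these pairs were 1 to 62 bp apart, with a median of 8 bp. Mean GC content at the OMM2.3 summit was 37.6% (range 34.8 to 40.8), against 46.6% in the other 1991 pairs.

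The 6 strongest of these pairs stood on high stacks of fragments in A3B and IgG alike, with an IgG background of 89 to 198 fragments in OMM2.3 and 125.5 to 205.6 in 92.1. The number of fragments stacked at a summit can be recovered from the fold enrichment and p that the caller gives. At the first pair on chromosome 16 it was 318 in OMM2.3 over an IgG background of 154, and 330 in 92.1 over 191. The fold enrichment was 1.79 and 1.72. The caller computes it after adding 1 to both numbers and, in OMM2.3, after scaling the A3B fragments down. Here and below, OMM2.3 fragment numbers are given before this scaling, while their backgrounds are on the scaled level. In OMM2.3, fragments over background thus overstate the enrichment, and the fold is the value to compare between lines. At the pair on chromosome 17, 363 fragments over 196 in OMM2.3 met 273 over 167 in 92.1, at folds of 1.60 and 1.63. At the second pair on chromosome 16 there were 223 over 124 and 241 over 146, at folds of 1.56 and 1.65. Their −log10 p was 18.2 and 19.5, 14.5 and 13.7, and 8.42 and 12.7 in that order of pairs and lines.

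The next 5 pairs by strength lay on chromosomes 1 and 16. At 143249813 to 143250048 of chromosome 1, −log10 p was 6.87 in OMM2.3 and 7.41 in 92.1, and the summits were 62 bp apart. A pair at 34593256 to 34593610 of chromosome 16 had values of 6.24 and 8.45 with summits 4 bp apart. At 46388647 to 46388926 of chromosome 16 they were 5.69 and 7.32. This last pair counts as single-copy, with 35.3% of its OMM2.3 32-mers repeated, although its window held 6 copies of GGAAT. The other pairs lay in centromere spans of chromosome 1. At 123646458 to 123646684, 29 fragments over a background of 9 in OMM2.3 faced 13 over 2.43 in 92.1, and the 32-mers had a median of 3370 copies. At 121743383 to 121743623 there were 40 over 15 and 28 over 11.3.

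By contrast, typical shared sites rested on few fragments. Over the other 1991 pairs, the median background was 1.17 fragments in OMM2.3 and 1.05 in 92.1. The median pair had 6 fragments at the OMM2.3 summit and 4 at the 92.1 summit, and in 2.3% of pairs both summits had at least 8. For 92.1 these numbers assume that its A3B fragments were not scaled down by the caller.

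Strong single-copy pairs reached lower values. The pair between genes on chromosome 1, nearest to ANP32E, which encodes a chaperone of the histone H2A.Z, had 9 fragments over 1.06 in OMM2.3 (−log10 p 4.82) and 6 over 1.01 in 92.1 (4.05). The pair in KIAA1671 had 7 and 6 fragments, with −log10 p of 3.94 and 4.43 and summits 60 bp apart. At 27177366 to 27177554 of chromosome 7, within HOXA10, a homeobox gene of body patterning, values were again 3.94 and 4.43, from 7 and 6 fragments. At PDAP1, which encodes a protein associated with platelet-derived growth factor, 8 and 6 fragments gave 3.94 and 4.43. An intron of DPT, a gene for the matrix protein dermatopontin, held a pair with 3.94 and 4.36, and a site nearest to ASXL3 on chromosome 18 one with 3.93 and 4.36. In all 6 the background that the caller set was 0.877 to 1.06 fragments, so these calls rest on a difference of a few fragments in each line. Over the 1991 pairs outside the 9 strongest, the lowest background was 1.053 in OMM2.3 and 0.877 in 92.1. The 6 pairs were at or near these lowest values, which need not be a count of IgG fragments at each site.

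The strongest peaks of either list were mostly not shared. Among shared OMM2.3 peaks 11 of 1995 had a q of at most 0.05 and 25 a p of at most 1e-05, and 0.351% and 0.728% of all OMM2.3 peaks passed these thresholds. Of the partners, 11 and 40 did, where 0.149% and 0.853% of all 92.1 peaks did. In 5 pairs both peaks passed a q of 0.05. These values belong to the contrast by which the peaks were called and describe the members only.

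The share of peaks that met the other line went up and down without a steady trend below a −log10 p of 4, and was highest from 5 up. From 2 to 2.5 and from 2.5 to 3 it was 3.33% and 4.17% in OMM2.3, and 1.73% and 1.29% in 92.1. In OMM2.3 it was 3.61% below a −log10 p of 2 (411 of 11389 peaks, 95% interval 3.28 to 3.97), 3.51% from 3 to 4 (561 of 15967, 3.24 to 3.81), 5.58% from 4 to 5 (39 of 699, 4.11 to 7.54) and 6.23% from 5 up (25 of 401, 4.26 to 9.04). In 92.1 it was 1.38% below 2 (426 of 30886, 1.26 to 1.52), 1.80% from 4 to 5 (99 of 5493, 1.48 to 2.19) and 3.49% from 5 up (40 of 1147, 2.57 to 4.71). Of OMM2.3 peaks with a −log10 p of 5 or more, 351 of 401 lay in repeated sequence. In single-copy sequence 3 of 50 such peaks were shared (6.0%, 2.06 to 16.2). Of the 1147 such peaks of 92.1, 799 lay in single-copy sequence, and 20 of these were shared (2.503%, 1.626 to 3.835). In repeated sequence 20 of 348 were (5.747%, 3.751 to 8.71). Over all strengths the 92.1 shares were 1.304% in single-copy and 2.526% in repeated sequence, so the top class was higher in both.

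**Figure D2:**
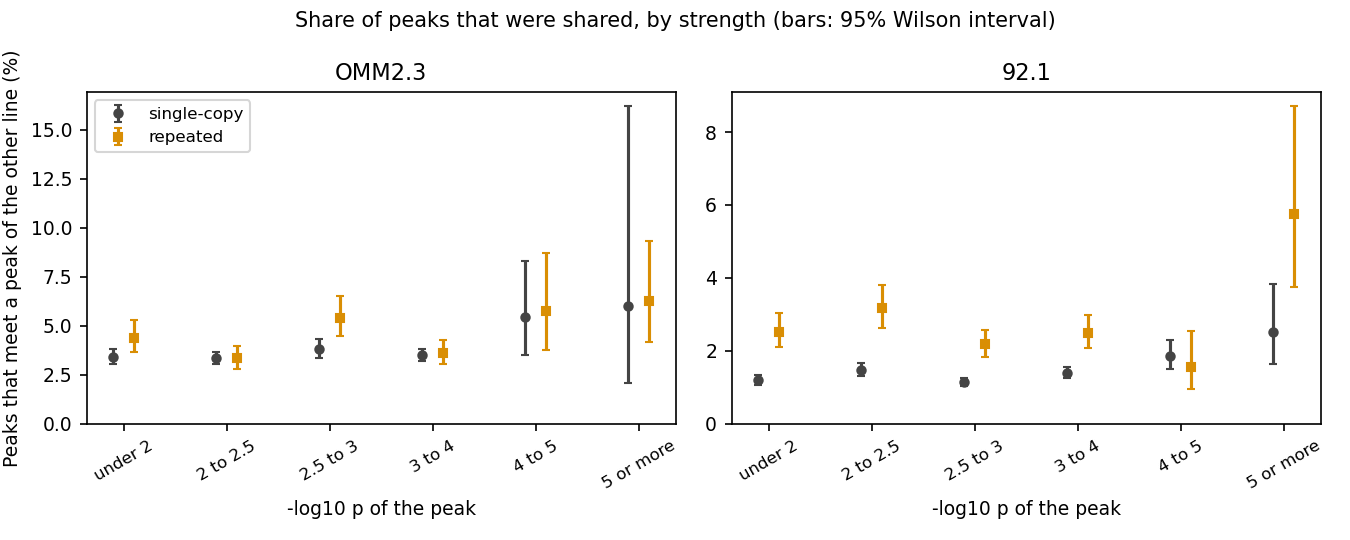
Share of peaks that met a peak of the other line (%) by the −log10 p of the peak, for OMM2.3 (left) and 92.1 (right), in single-copy and repeated sequence; points are shares and bars 95% Wilson intervals. Below a −log10 p of 4 the OMM2.3 shares lie between 3.33% and 5.41%, and the 92.1 shares are higher in repeated than in single-copy sequence.

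At the edge of the rule, 59 pairs overlapped by 1 to 10 bp, and 65 OMM2.3 peaks missed a 92.1 peak by 0 to 9 bp. Median −log10 p in OMM2.3 was 2.64 just inside and 2.34 just outside, and median width 254 and 294 bp. Unshared OMM2.3 peaks lay a median of 6612 bp from the nearest 92.1 peak.

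The distance of 92.1 summits from OMM2.3 summits places the pairs in their surroundings. Within 100 bp of the 55061 OMM2.3 summits lay 748 summits of 92.1, while each 100 bp of distance between 1 and 10 kb held a mean of 620.8 (SD 24.5 over 90 bins, range 564 to 681). The nearest bin thus stood 127.2 above that mean. Beyond 100 bp the number fell to 638 and then 633, inside the range of the distant bins.

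Most of this surplus lay in repeated sequence. Around OMM2.3 peaks in repeated sequence there were 213 summits within 100 bp against a mean of 137.7 at 1 to 10 kb (range 110 to 170). In the centromere and gap zones, the stretches within 3 Mb of a centromere or largest gap, the numbers were 89 against 30.7 (19 to 46), a ratio of 2.90. Repeated sequence elsewhere gave 124 against 106.9 (75 to 134). In single-copy sequence there were 535 against 483.1, a ratio of 1.11, and the highest of the 90 distant bins held 531. For the 1100 OMM2.3 peaks with a −log10 p of at least 4 the numbers were 43 against 10.8 (4 to 19), and for the 400 of them in single-copy sequence 10 against 4.94 (1 to 10).

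**Figure D3:**
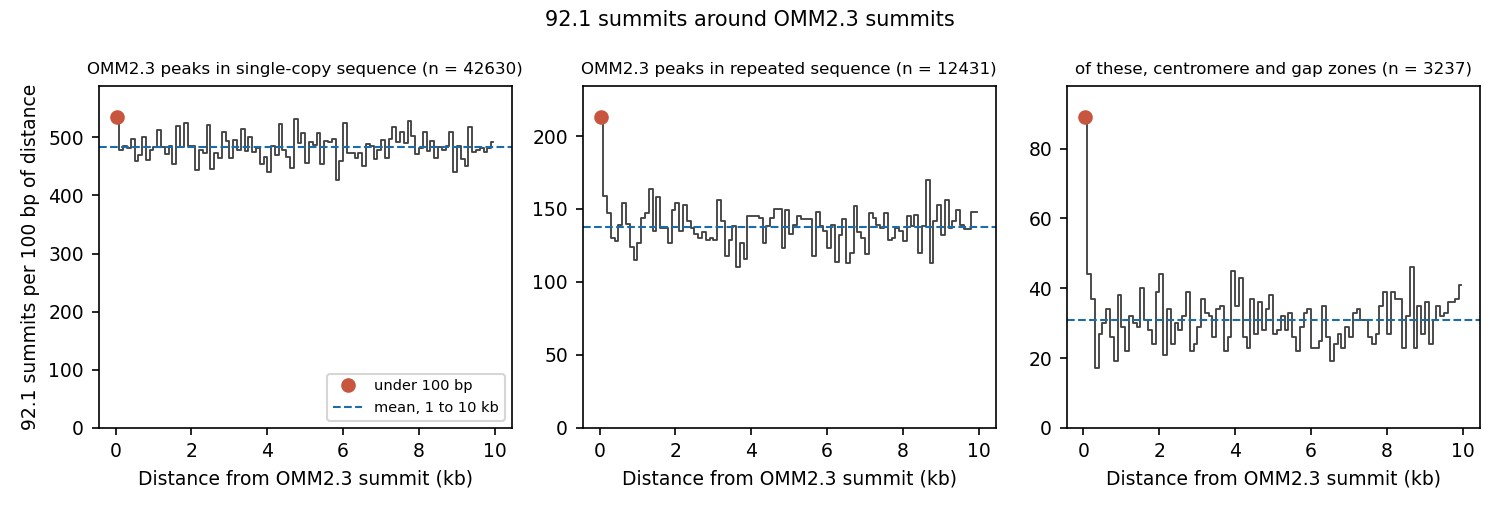
Number of 92.1 summits per 100 bp of distance from OMM2.3 summits, out to 10 kb, for OMM2.3 peaks in single-copy sequence, in repeated sequence, and in repeated sequence of centromere and gap zones; the point is the count under 100 bp and the dashed line the mean at 1 to 10 kb. The point stands at 535 against 483.1, 213 against 137.7 and 89 against 30.7.

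Shared and unshared peaks were then set side by side. Their strength by −log10 p and fold enrichment barely differed. Median −log10 p of shared and unshared OMM2.3 peaks was 2.40 and 2.34, and the means differed by 0.046 (95% interval 0.003 to 0.088). In 92.1 both medians were 2.68, with a difference of means of 0.068 (0.024 to 0.113). Shared peaks were wider, with means of 307.5 against 293.6 bp in OMM2.3 and 319.7 against 292.3 bp in 92.1. The differences were 13.9 bp (9.19 to 18.6) and 27.3 bp (21.9 to 32.8), and a wider peak has more room to meet another. Among peaks of the shortest width (OMM2.3 225 bp, 92.1 223 bp), the difference in mean −log10 p was 0.002 and 0.004, with intervals that include 0. Mean fold enrichment was 2.70 in shared and in unshared OMM2.3 peaks, and 2.62 and 2.61 in 92.1.

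Repeated sequence was more frequent at shared sites. It held 509 of 1995 shared OMM2.3 peaks (25.5%) against 22.5% of unshared ones, a difference of 3.05 points (1.15 to 5.04) with the same direction on 16 of 22 chromosomes. Of the partners, 24.96% lay in repeated sequence against 14.5% of unshared 92.1 peaks, a difference of 10.5 points (8.60 to 12.4) found on all 22 chromosomes. Outside the centromere and gap zones the OMM2.3 difference was 1.04 points (−0.789 to 2.99). Partners thus resembled the OMM2.3 list, of which they share the sites, more than the rest of the 92.1 list.

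Centromeres and satellites stood out among the repeats. The centromere and gap zones held 248 shared OMM2.3 peaks (12.4%), against 9.74% of unshared OMM2.3 peaks and 6.75% of unshared 92.1 peaks. Spans dense in CENP-B boxes (at least 20 boxes per 100 kb) held 87 (4.36%), against 2.99% and 1.48%. The CENP-B box itself was found on either strand of the window at 37 shared OMM2.3 summits (1.86%) against 1.41% of unshared ones, and at 38 partners (1.91%) against 0.677%. At least 5 copies of GGAAT on either strand were found at 15 shared summits in each line (0.752%), against 0.281% and 0.101%. Such content was more frequent at shared than at unshared summits on 4 of 22 chromosomes in each line. Of all 164 OMM2.3 summits with this content, 9.15% were shared (5.62 to 14.5), and of 149 such summits in 92.1, 10.1% (6.20 to 16.0). A motif match describes the letters in the window and no bound factor.

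Many members resembled each other. Of the 1995 shared OMM2.3 windows, 471 (23.6%) held a 32-mer of another member, and they fell into 27 families. The largest family had 277 windows on all 22 chromosomes, with a mean GC content of 50.4% and a median of 4 copies per 32-mer, and none lay in a CENP-B span. The next, of 43 and 35 windows, lay entirely in centromere and gap zones, with 37 and 35 windows in CENP-B spans and a median of 1866 and 1602 copies. GC content was 39.3% and 38.9% in these. Median −log10 p in OMM2.3 was 2.34, 2.96 and 3.52 in the order of size. Members of a family share sequence, so they are not independent sites.

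GC content differed more between shared and unshared peaks in 92.1 than in OMM2.3. A partner must lie at an OMM2.3 peak, and the OMM2.3 list is richer in GC than the 92.1 list, so the choice of members itself raises the GC content of partners. In the summit window, shared OMM2.3 peaks had a mean of 46.5% against 46.2%, a difference of 0.365 points (−0.043 to 0.774). Partners had 45.5% against 42.2% in unshared 92.1 peaks, 3.24 points higher (2.83 to 3.66) and higher on 20 of 22 chromosomes. The TC dinucleotide that A3B prefers, counted with its complement GA, made up 12.5 of every 100 dinucleotides at shared and 12.4 at unshared OMM2.3 summits. That difference was 0.138 (0.024 to 0.253), and 0.043 (−0.068 to 0.155) without the centromere and gap zones, whose share among the members is given above. In 92.1 it was 0.361 (0.247 to 0.475), and 0.138 between peaks of like GC content in bins of 2 points. The part of satellites in it was not tested. Among the sequences printed above, TC and GA together occurred 55 and 53 times in the overlaps of 248 and 227 bp on chromosome 16. In the others, of 185 to 271 bp, they occurred 24 to 38 times. These are numbers per overlap, not corrected for its length.

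Promoters held a slightly larger share, and introns a smaller share, of shared sites. Promoters were taken as the 3 kb in each direction around every annotated transcript start of any gene type, including starts inside longer genes. In them lay 22.6% of shared OMM2.3 peaks against 20.5% of unshared peaks, a difference of 2.09 points (0.274 to 4.01). In 92.1 the shares were 22.2% and 20.4%, 1.73 points apart (−0.052 to 3.62). Introns held 39.6% against 43.0% in OMM2.3, 3.45 points less (1.25 to 5.62), and 40.5% against 44.7% in 92.1. Intergenic sequence held 35.0% against 34.1%, and 35.1% against 32.5%. The 3′ UTRs held 25 shared OMM2.3 peaks and 5′ UTRs outside promoters 0 of 1995, which allows a share of up to 0.192% (Wilson). The direction of the OMM2.3 promoter difference was found on 13 of 22 chromosomes. It was 1.27 points (−1.49 to 4.30) with an overlap of 50% of each peak and 0.827 (−1.98 to 3.92) with summits within 100 bp, so it was not detectable for closely matching pairs.

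In single-copy sequence the promoter difference was larger. There, 369 of 1486 shared OMM2.3 peaks lay in promoters (24.8%) against 21.5%, 3.37 points more (1.21 to 5.67). Partners had 24.1% against 20.9%, 3.27 points more (1.15 to 5.51). GC content moved with it. Between peaks of like GC content the difference over all peaks was 1.72 points in OMM2.3 and −1.05 points in 92.1. Closer in, within 1 kb of a protein-coding start site, lay 136 shared OMM2.3 peaks (6.82%) against 5.30%, and 139 partners (6.97%) against 5.63%. Between peaks of like GC content these differences were 1.34 points in OMM2.3 and −0.067 points in 92.1.

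Single-copy pairs within 1 kb of a protein-coding start site numbered 120, at 119 genes. Start sites were those of every annotated transcript of protein-coding genes. The strongest pairs lay at PDAP1 and at TBCD, a folding cofactor of tubulin on chromosome 17, 11 bp from such a site. The TBCD pair had a −log10 p of 3.94 in OMM2.3 and 4.41 in 92.1, yet it overlapped by only 19 bp, with summits 428 bp apart. MRTO4, which acts in ribosome assembly, had 3.94 and 3.52 at summits 82 bp apart. RTCB, the ligase of transfer RNA splicing, had 3.30 and 3.46 at 379 bp. LMX1A, a LIM homeobox factor, had 3.11 and 4.36 at 126 bp, and CFAP144, a gene of cilia, 3.11 and 4.36 at 89 bp. KRT13, a keratin of mucosal epithelium, had 3.11 and 3.52 at 135 bp, and FASN, the fatty acid synthase, 3.11 and 3.41 at 159 bp. Of these 8 pairs, 3 had summits under 100 bp apart, and every one rested on 8 or fewer fragments in each line. The pairs at PDAP1, TBCD, RTCB, CFAP144 and FASN lay more than 1 kb from both ends of the gene, at transcript starts inside it.

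Shared sites were unevenly spread over chromosomes. The share of OMM2.3 peaks that were shared ran from 1.58% on chromosome 15 (15 of 949, 0.960 to 2.59) to 6.91% on chromosome 8 (253 of 3663, 6.13 to 7.77), and chromosome 6 followed with 5.85% (133 of 2275, 4.95 to 6.89). The sequence covered by 92.1 peaks ran from 0.730% on chromosome 10 to 3.39% on chromosome 8. Over the 22 chromosomes, which share the same libraries, sharing and 92.1 coverage had a Pearson coefficient of 0.778 and a Spearman coefficient of 0.597. Without chromosome 8 the coefficients over 21 chromosomes were 0.578 and 0.536. The ratio of the share to the coverage was 1.86 on chromosome 22 and 4.51 on chromosome 6, its lowest and highest values. A peak has a width of its own, so this ratio is well above 1 also for peaks placed without regard to each other. Unshared peaks had like mean widths, 293.6 bp in OMM2.3 and 292.3 bp in 92.1. The width of an OMM2.3 peak thus adds about as much to the share as the coverage does. The ratio for such placement was not computed, so these values do not measure sharing beyond it.

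**Figure D4:**
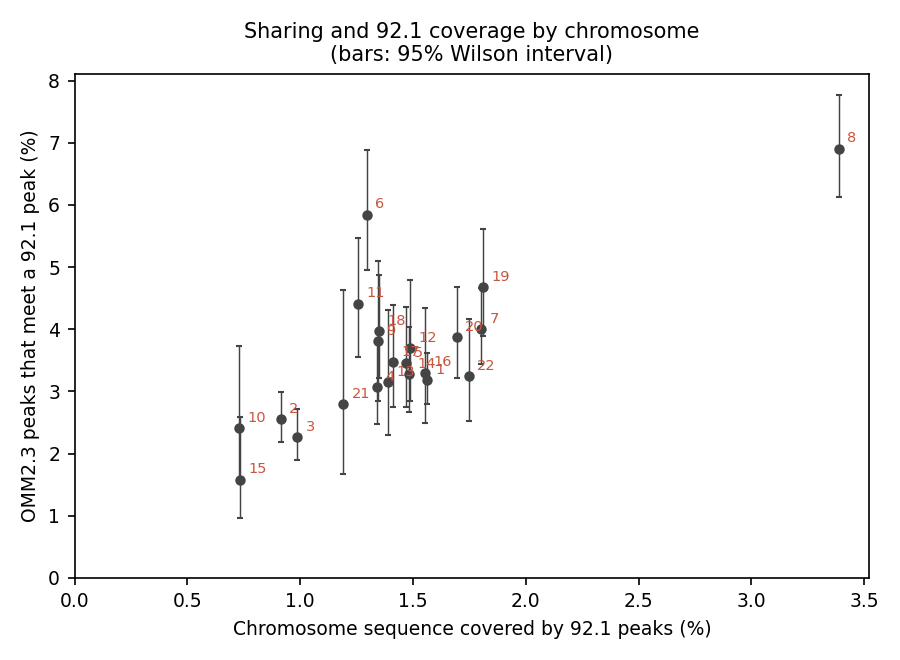
Share of OMM2.3 peaks that met a 92.1 peak (%) against the chromosome sequence covered by 92.1 peaks (%), with 1 numbered point per chromosome and 95% Wilson intervals. Chromosome 8 lies at 3.39% and 6.91%, and chromosome 6 stands above the chromosomes of like coverage, at 5.85%.

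Within chromosome 6 the members lay almost entirely on the short arm. There 128 of 1972 OMM2.3 peaks were shared (6.49%), where 92.1 covered 3.10% of the sequence. On the long arm 5 of 303 were (1.65%), at a coverage of 0.337%. Both lists were dense on the same arm, and the ratio of share to coverage was 2.09 on the short arm and 4.90 on the long arm, the latter from 5 shared peaks, against 4.51 for the chromosome as a whole. On chromosome 1, 162 shared peaks (5.60%) lay on the long arm at a 92.1 coverage of 2.49%, against 57 (1.43%) at 0.749% on the short arm. OMM2.3 peaks covered 0.792% of that long arm and 0.960% of the short arm, so the list of 92.1 alone was denser on the long arm. On chromosome 8, 225 members lay on the long arm (7.14%) and 28 on the short arm (5.48%), at coverages of 3.56% and 3.02%. Chromosome 3 held 39 on its short arm (1.55%) and 76 on its long arm (2.96%), at 92.1 coverages of 0.661% and 1.27%. The ratio of share to coverage was alike on its arms, 2.35 and 2.33. Gains of 6p and 8q and loss of chromosome 3 are frequent in uveal melanoma. DNA copy number was not measured here.

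At finer scale, 1137 windows of 1 Mb held a pair, and 656 of them held 1. The 44 windows with 5 or more held 253 pairs. The fullest had 8 each, at 47 to 48 Mb of chromosome 20, with pairs in SULF2 and ZMYND8, at 102 to 103 Mb of chromosome 7, where 7 of the 8 had repeated sequence at a summit, and at 85 to 86 Mb of chromosome 8.

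Genes were read from the overlap of each pair. Of the 2000 pairs, 1215 (60.8%) lay in the body of a gene of any type and 925 (46.3%) in a protein-coding gene. The latter met 871 of 19111 protein-coding genes, or 4.56%. Of these, 99 held at least 2 pairs and 11 at least 3. Genes with a pair were long, with a median length of 103.3 kb against 26.4 kb for the rest. The share with a pair rose with length in every class, from 1.30% below 20 kb (103 of 7904, 1.08 to 1.58) through 10.5% at 100 to 300 kb (286 of 2718, 9.42 to 11.7) to 27.8% from 500 kb up (86 of 309, 23.1 to 33.1).

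**Figure D5:**
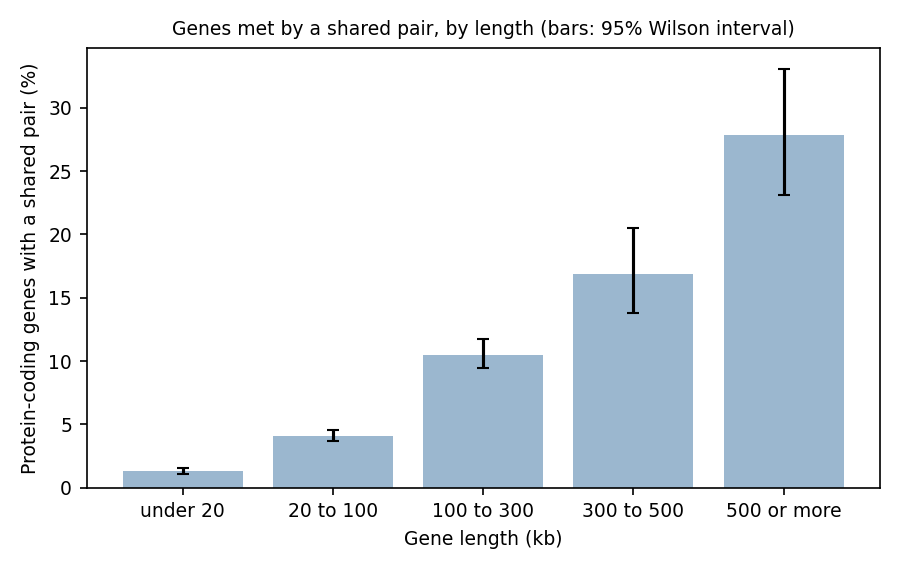
Share of protein-coding genes whose body held a shared pair (%), by gene length in kb; bars start at 0 and error bars are 95% Wilson intervals. The share goes from 1.30% of genes under 20 kb to 27.8% of genes of 500 kb or more.

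The gene with most pairs was SLC14A2, a urea transporter gene of 470.7 kb on chromosome 18 (45212995 to 45683688). It held 5 pairs, all in introns and in single-copy sequence, among 17 OMM2.3 and 33 92.1 peaks. From left to right along the chromosome, −log10 p was 4.83 in OMM2.3 and 2.68 in 92.1, then 3.77 and 3.52, 3.01 and 1.61, 2.34 and 3.52, and 3.77 and 2.63. The overlaps were 2, 45, 131, 137 and 116 bp, and summits 187, 194, 155, 20 and 257 bp apart. The strongest of the 5 paired OMM2.3 peaks therefore belonged to a pair that only just met.

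PXYLP1, a gene of proteoglycan synthesis on chromosome 3, held 4 pairs in 139 kb, all in single-copy sequence. Paired summits were 382, 1, 106 and 0 bp apart. The pair with coinciding summits had a −log10 p of 2.16 in OMM2.3 and 2.48 in 92.1, from 5 and 4 fragments. CDKAL1, which encodes an enzyme that modifies transfer RNA, held 4 pairs on the short arm of chromosome 6, among 19 and 91 peaks, and its summits were 181 to 323 bp apart. ZFPM2, which encodes a partner of GATA factors on chromosome 8, held 4 pairs in 1214 kb, with summits 5 to 290 bp apart.

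Of the genes with 3 pairs, those with most per Mb were TMEM68, OLFM2, AGO2 and SRGAP2. In TMEM68, a membrane protein gene of 77.0 kb on chromosome 8, paired summits were 46, 16 and 162 bp apart. In OLFM2, for an olfactomedin-domain protein on chromosome 19, they were 88, 131 and 31 bp apart. AGO2, the slicer of RNA interference on chromosome 8, had the highest lower −log10 p of the 4, in a pair of 4.30 in OMM2.3 and 3.92 in 92.1, but the summits of that pair were 761 bp apart. The same OMM2.3 peak met a second 92.1 peak of 1.45, 71 bp from its summit. All 3 pairs of SRGAP2, a gene of neuronal migration with partial copies elsewhere on chromosome 1, lay in repeated sequence, with 70.6% to 94.1% of their 32-mers repeated in either line, so reads of its copies could be counted there.

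Genes of A3B biology and of the disease were looked up by list. None of 10 genes taken from the study's text, which links them to A3B, R-loops or replication stress, held a pair (0 of 10, Wilson upper limit 27.8%), where 4.56% of all protein-coding genes did. Both lines had a peak in 4 of the 10 without meeting. The 10 genes had a median length of 32.2 kb, and 5 had an OMM2.3 peak and 7 a 92.1 peak. Of all 7700 protein-coding genes of 20 to 100 kb, 4306 and 6426 did. CDC45, the helicase component needed to start replication, had 7 OMM2.3 peaks and 1 of 92.1. ATR, the kinase of the replication stress response, had 2 and 8, and RPA1 and RPA2, subunits of the single-strand binding protein, had 1 and 1 each. RNASEH1, the nuclease that removes the RNA of R-loops, had 3 and 0, and APOBEC3B itself 0 and 2. CDC27 had 0 and 4, MCM4 0 and 1, and CHEK1 and AURKB had none in either line.

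Of 49 genes of replication and the replication stress response, 1 held a pair (2.04%, 0.361 to 10.7). This was ZRANB3, a remodeller of stalled forks, with a −log10 p of 2.34 in OMM2.3 and 2.68 in 92.1 at summits 364 bp apart. Of 26 factors that resolve or prevent R-loops, 2 did (7.69%, 2.14 to 24.1). DHX9, a helicase that unwinds R-loops, had a pair in an intron, with 3.11 and 2.68 at summits 60 bp apart. TOP3B, a topoisomerase that acts on DNA and RNA, had one with 2.54 and 2.98 at 64 bp. It was classed as promoter by an annotated transcript start within 3 kb, but lay more than 3 kb from both ends of TOP3B. The APOBEC and uracil repair list had 0 of 15 (upper limit 20.4%). Of 14 driver and risk genes of uveal melanoma, 1 did (7.14%, 1.27 to 31.5). It was GNAQ, the G protein subunit often mutated in this tumour, with 3.94 and 2.68 in an intron at summits 12 bp apart. For every one of these lists the interval included 4.56%.

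Common fragile site genes, mostly very long and prone to break under replication stress, held pairs in 11 of 29 (37.9%, 22.7 to 56.0). Their lengths ran from 84.9 to 2474 kb, with a median of 1337 kb. Of all protein-coding genes of 500 kb or more 27.8% held a pair, which lies within that interval, though not all 29 are that long. All 29 had peaks of both lines. Of all 309 protein-coding genes of 500 kb or more, 291 had an OMM2.3 peak and 309 a 92.1 peak. The strongest pairs were in introns of DAB1 (3.11 in OMM2.3 and 4.43 in 92.1, summits 63 bp apart), DLG2 (3.94 and 2.68, 78 bp), MAGI2 (2.34 and 3.52, 231 bp), NAALADL2 (2.298 and 3.52, 23 bp) and FHIT (2.25 and 2.68, 329 bp). DAB1 had 60 OMM2.3 and 31 92.1 peaks over 1552 kb, of which 1 pair met, and RBFOX1 had 86 and 99 over 2474 kb, of which again 1 did.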

How the data were processed

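A3B ChIP-seq peak lists of OMM2.3 and 92.1 were analysed, each from 1 A3B library, with the IgG library of the line as control. The authors aligned reads to GRCh38 with Bowtie2 (2.2.5 in the submitters' processing notes), used Sambamba to drop duplicates, and ran MACS2 (2.2.7.1 in those notes) at a p of 0.05. The authors' files give per peak a score, 10 times −log10 p without its decimals. They also hold the deposited fold enrichment (a ratio to local IgG background with 1 added to both), the deposited −log10 p-value and the deposited −log10 q-value at the summit. Such a lenient threshold admits weak peaks, and filters on mapping quality are not given in the sources used here. The deposited values were used as they stand.

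Pairs were overlaps of at least 1 bp on chromosomes 1 to 22. Gene models were GENCODE 44, and a peak took the first class that applied at its summit. Promoters reached 3 kb to either side of every annotated transcript start. Summit windows reached 100 bp to either side. Fragment numbers were those that returned the deposited −log10 p within 0.002 (100% of OMM2.3 and 99.99% of 92.1 peaks), at a scaling of 0.867 in OMM2.3 and 1 in 92.1. The total depth of the libraries is unknown. Shares have 95% Wilson intervals, differences of shares Newcombe intervals, and differences of means intervals from the spread over peaks. With 1 library per group, no test was run. Of the steps, only pair finding, the distance profile and the recovery of fragment numbers were run on simulated data. Tools were Python 3.11.15, matplotlib 3.10.9, pandas 2.3.3, scipy 1.17.1 and numpy 2.4.6.

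The members, gene lists and rules were chosen with earlier results of these data known. The named pairs were the 8 with the highest lower −log10 p in all sequence, in single-copy sequence, and in single-copy sequence within 1 kb of a protein-coding start site. The named genes were the 8 with most pairs, the 10 of the study text, and up to 5 per list. KIAA1671, SULF2, ZMYND8 and RBFOX1 and the windows of 1 Mb were named after their values were seen, as holders of a printed sequence, of a full window or of many peaks. The distance profile, families, fragment numbers and GC-matched differences were added after the lists had been examined. Alternatives covered the overlap, the p and q thresholds, peak width, repeats, centromere and gap zones, chromosome 8, promoter width and gene extent. The IgG libraries were used only through the authors' calls.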

Additional observations from a re-analysis of the deposited data

Results flagged for a closer look

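Overlaps between the lists also occurred outside the chromosomes compared. On chromosome Y, 13 of 153 OMM2.3 peaks met a 92.1 peak (8.50%, 95% Wilson interval 5.03 to 14.0), with 31 peaks in the 92.1 list, and in 3 of these pairs both had a p of at most 1e-05. On unplaced and unlocalised sequences, 22 of 435 OMM2.3 peaks did (5.06%, 3.36 to 7.54), and 1 pair passed that threshold. There was no control list to set these against. Chromosome X held 1 pair among 272 OMM2.3 peaks and the alternate haplotypes 3 among 246.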

How the results depend on the processing

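No paired analysis was possible because a line has 1 library per antibody. For 9 results, 71 alternatives were computed. A value was taken as alike inside the reported interval or, for medians and numbers of genes, if it changed by less than 1.5 times, which held for 35. Another 34 moved and 2 reversed. The cause was not tested unless stated. The listed genes with a pair stayed at 15 with gene bodies extended by 3 kb.

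The 2 reversals were of the promoter difference, 2.09 points over all OMM2.3 peaks. It was −6.38 points at a p of at most 1e-05, where 9 peaks were shared, and −4.26 at a q of at most 0.05, where 5 were, and both intervals included 0. It was 1.27 points with an overlap of 50% of each peak, 0.827 with summits within 100 bp and 2.32 (−0.641 to 5.58) at the shortest width, again with intervals that include 0. The share of OMM2.3 peaks that met a 92.1 peak, 3.62%, became 1.44% with an overlap of 50% of each peak, 1.37% with summits within 100 bp, 2.24% at a p of 1e-05, 2.59% at a q of 0.05, 3.26% at the shortest width, 3.39% without chromosome 8 and 3.24% in single-copy sequence. As a share of 92.1 peaks it was 1.48%. The p and q thresholds cut both lists. They left 401 OMM2.3 and 1147 92.1 peaks at a p of 1e-05, and 193 and 200 at a q of 0.05. With so few 92.1 peaks to meet, the shares at these thresholds cannot be compared with 3.62%. The median summit distance fell from 135 bp to 61.5, 44, 8 and 4 bp in the first 4 of these settings, the second by its own construction. The 871 genes became 348, 341, 0 and 0 there, and 358 at the shortest width, where fewer peaks were compared.

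The repeated-sequence difference of 3.05 points was 7.07 with 50% overlap, 6.10 with summits within 100 bp, 8.51 at a q of 0.05 and 1.04 without centromere and gap zones. The GC difference of 0.365 points was −0.076 with 50% overlap, −5.01 at a p of 1e-05, −4.79 at a q of 0.05 and 0.935 in single-copy sequence. The difference in mean −log10 p, 0.046, was 0.128 with 50% overlap, 0.120 with summits within 100 bp, 1.47 at a p of 1e-05, 2.41 at a q of 0.05 and 0.00201 at the shortest width, and in fold enrichment it was 0.00117. The TC difference of 0.138 was 0.301 with summits within 100 bp, 5.40 at a p of 1e-05 and 6.91 at a q of 0.05. Values at the strict thresholds rest on 9 and 5 shared peaks. With few fragments per peak and 1 library per line, a site called in 1 line only is not shown to be absent from the other.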
